A study of Mus musculus with 8 samples.

Results

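The receptors of S100A8 and S100A9 and the chain of genes from TLR4 to NF-κB were followed in RNA from brown adipose tissue (BAT). They are 10 genes, taken by name out of the 56953 genes of the count table: the receptors Tlr4, Tlr2 and Bsg, the co-receptors Ly96 and Cd14, the adaptor Myd88, the NF-κB subunits Rela and Nfkb1, and the feedback inhibitors Nfkbia and Tnfaip3. The libraries came from wild type C57BL/6J mice that were 8 to 10 weeks old when injected and either male or female, with the sex of each mouse not assigned in the labels. The 4 control mice (CTR) received PBS. The 4 cachectic mice (CAC) received 3000000 Lewis lung carcinoma (LLC) cells under the skin of the right flank, in PBS, and were monitored for 21 days. Lewis lung carcinoma is a transplantable mouse tumour line used to induce cancer cachexia, and only mice that developed a tumour were kept in the CAC group. Each mouse gave 1 library, so p-values measure the spread between mice of 1 experiment.

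S100A8 and S100A9 are calcium-binding proteins that neutrophils and monocytes store and release during inflammation. Outside the cell they are ligands of TLR4, a receptor that works as a complex with MD-2, the product of Ly96, and is loaded by CD14, and they also bind basigin, the product of Bsg. An engaged Toll-like receptor recruits the adaptor MYD88, which leads through the IKK kinases to the degradation of IκBα and lets the subunits p65 and p50 of NF-κB enter the nucleus. Much of this chain is regulated at the level of protein, by binding, phosphorylation and degradation, and mRNA levels do not report those steps. Macrophages are the best known carriers of TLR4 and CD14 in adipose tissue, and basigin is found on most cells.

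The CTR libraries held between 2454493 and 4827956 counts each and the CAC libraries between 1823167 and 3392538. At that depth 3 counts, the upper 95% limit for a count of 0, came to 0.62 to 1.65 CPM (reads divided by the library's size, which edgeR's TMM factors correct for composition, and brought to a common total). These limits use the library totals before TMM scaling and cover counting error only. The summed level of 8 brown adipocyte markers, among them Ucp1 and Cidea, lay between 15989 and 17783 CPM in CTR and between 15467 and 17769 CPM in CAC, and no marker was at 0 in any group. Ucp1, Cidea and Fabp4 carried most of that sum, and 0 of the 8 were called. The median log2 fold change of the 8 was -0.09, and the 3 with an unadjusted p below 0.05 were lower in CAC. They were Pparg, the transcription factor of adipocyte identity (log2 fold change -0.71, adjusted p = 0.261 by edgeR), Plin1, a lipid droplet coat protein (-0.27, adjusted p = 0.192), and Cox7a1, a subunit of cytochrome c oxidase (-0.22, adjusted p = 0.292). After low-count genes had been left out by edgeR's filter, 9876 were tested by its quasi-likelihood test. P-values were adjusted over all of them by the method of Benjamini and Hochberg, and a gene was called at an adjusted p below 0.05.

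None of the 10 genes was called. Bsg, Myd88, Rela, Nfkb1 and Nfkbia passed the low-count filter, and 0 of these 5 had an adjusted p below 0.05, where 0.932% of all genes tested did. Tlr4, Ly96 and Cd14 were left out by the filter, with 14 to 37 reads each over the 8 libraries. Tlr2 and Tnfaip3 had 0 reads in every library. With an unadjusted p below 0.05 there was 1 gene of the 5, Bsg, where 12.9% of all genes tested reached it. All 5 had a positive log2 fold change, with a median of 0.23, while the median over all genes tested was at 0.00 and 50.0% of them were positive. The same 0 calls were made by DESeq2, which gave 1 of the 5 an unadjusted p below 0.05.

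Tlr4, the main signalling receptor for S100A8 and S100A9, lies at chr4:66827584-66930284 on the plus strand (GRCm38). It had 2, 3, 1 and 8 reads in CTR 1 to 4 and 5, 4, 11 and 3 reads in CAC 1 to 4. Scaled to library size these were 0.72, 0.80, 0.41 and 1.76 CPM in CTR and 2.70, 2.13, 3.22 and 1.05 CPM in CAC. CAC 1 to 3 lay above every CTR library, and CAC 4 fell below CTR 4, so the groups overlapped. The mean was 0.92 ± 0.58 CPM for CTR and 2.27 ± 0.93 CPM for CAC (SD, n = 4), with a difference of 1.35 CPM and an exact two-sided permutation p of 0.0571. The smallest p that the 70 assignments of 4 of 8 libraries allow is 0.0286. Pooled over mice, the 23 reads in CAC and 14 in CTR gave a ratio of 2.21 after scaling, with a 95% interval of 1.09 to 4.65 that covers counting error and not the spread between mice. When the low-count filter was dropped, edgeR gave Tlr4 a log2 fold change of 1.11 (SE 0.57) and an adjusted p of 0.517. The overlap rested on CTR 4 and CAC 4. Without either of them the remaining CAC libraries were all above the remaining CTR libraries, and the exact p stayed at 0.0571. In bulk tissue, fewer cells of a type and less RNA per cell cannot be told apart, and the same holds for more of either.

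Tlr2, a receptor of the same family that senses bacterial lipoproteins, lies at chr3:83836272-83841767 on the minus strand. It had 0 reads in all 8 libraries, with a 95% upper limit of 0.62 CPM in the deepest library and 1.65 CPM in the shallowest. These are limits of single libraries, and a limit over the reads of a whole group was not computed. No comparison was possible at this depth.

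Bsg encodes basigin, also called CD147 or EMMPRIN, a membrane glycoprotein that binds S100A9 and escorts monocarboxylate transporters to the cell surface. It lies at chr10:79704491-79711969 on the plus strand. Its level was 194, 189, 200 and 214 CPM in CTR 1 to 4 and 265, 264, 246 and 203 CPM in CAC 1 to 4, from at least 481 reads in each library and with a fraction of a read in 1 library. CAC 1 to 3 were above all CTR libraries, and CAC 4 lay among them. The CTR mean was 199 ± 10.9 CPM and the CAC mean 245 ± 28.9 CPM (SD, n = 4). The log2 fold change was 0.30 (SE 0.10, 95% interval 0.08 to 0.51), with an unadjusted p of 0.00868 and an adjusted p of 0.196 by edgeR. The call did not pass in any alternative fit, and the lowest adjusted p, 0.0975, came without CAC 4.

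**Figure D1:**
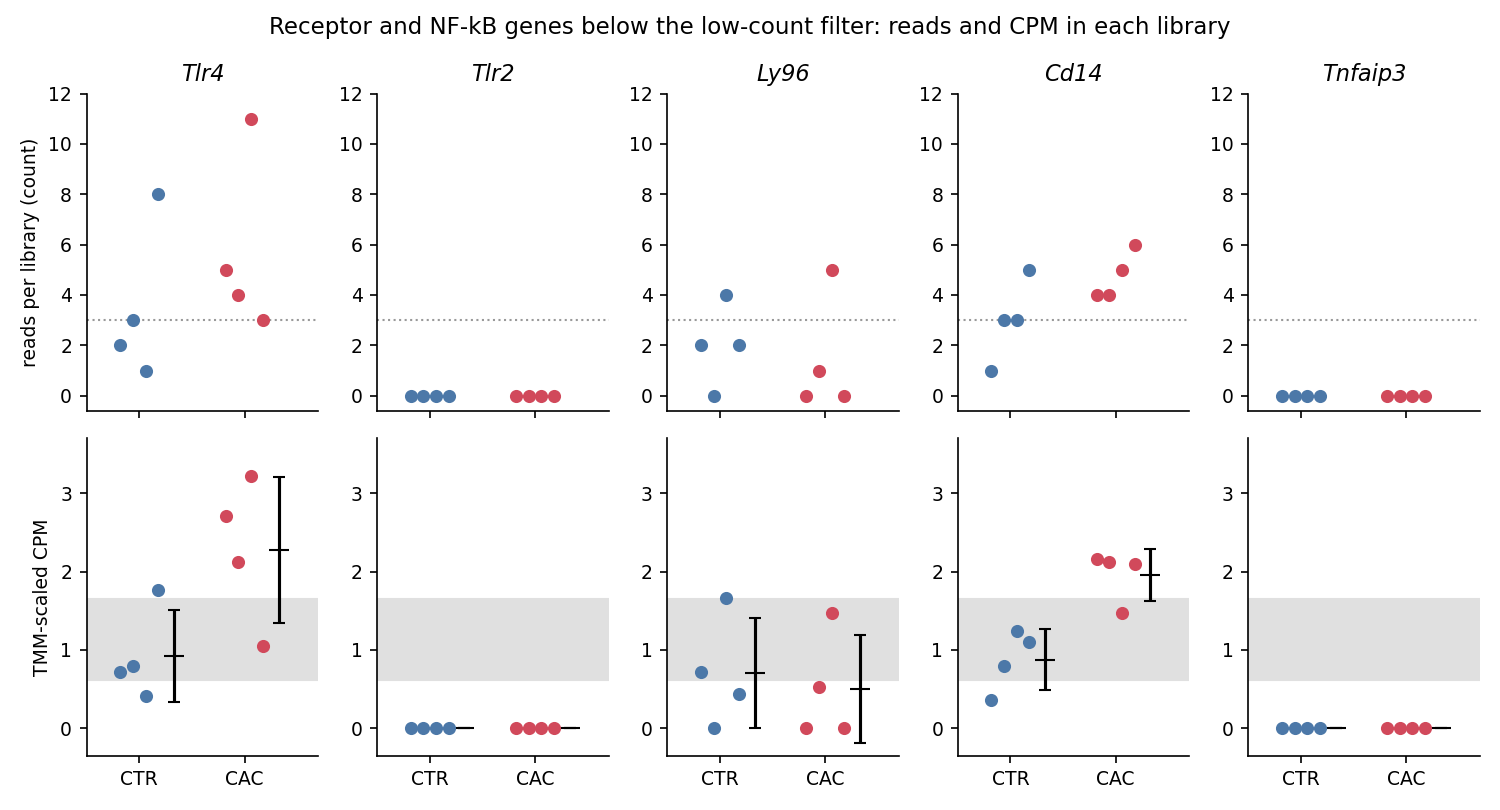
Reads per library (upper row) and TMM-scaled CPM (lower row) of the 5 genes below the low-count filter in CTR (blue) and CAC (red). Points are libraries in the order of their replicate numbers, and black bars are the mean and SD (n = 4). The dotted line marks 3 reads and the grey band is the range of 3 reads in CPM, 0.62 to 1.65. The CAC libraries of Cd14 lie above the CTR libraries, those of Tlr4 overlap them at CAC 4, and Tlr2 and Tnfaip3 stay at 0.

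Cd14 encodes the co-receptor that delivers ligands to the TLR4 complex. The gene lies at chr18:36725067-36726798 on the minus strand. It had 1, 3, 3 and 5 reads in CTR 1 to 4 and 4, 4, 5 and 6 reads in CAC 1 to 4. In CPM these were 0.36, 0.80, 1.24 and 1.10 in CTR and 2.16, 2.13, 1.47 and 2.09 in CAC. Every CAC library exceeded every CTR library, with the smallest distance between CAC 3 and CTR 3. The CTR mean was 0.88 ± 0.39 CPM and the CAC mean 1.96 ± 0.33 CPM (SD, n = 4), with an exact permutation p of 0.0286, the smallest that the design allows. Tlr4, Ly96 and Cd14 were compared in this way, and Cd14 was the 1 gene of these 3 with CAC wholly above CTR. Among the 6167 genes left out by the filter with 10 or more reads in all, 1.95% showed the same order of the groups. The 19 reads in CAC and 12 in CTR gave a scaled ratio of 2.13 with a 95% counting interval of 0.98 to 4.82, which reaches below 1. With no filter edgeR gave a log2 fold change of 1.05 (SE 0.62) and an adjusted p of 0.620, so the difference was not called across genes.

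Ly96 encodes MD-2, the small secreted protein that holds the ligand in the TLR4 complex, and lies at chr1:16688051-16709611 on the plus strand. It had 2, 0, 4 and 2 reads in CTR and 0, 1, 5 and 0 reads in CAC. The levels were 0.72, 0, 1.66 and 0.44 CPM in CTR and 0, 0.53, 1.47 and 0 CPM in CAC. Both groups included a library at 0, and the highest library of each was CTR 3 and CAC 3. The means were 0.71 ± 0.70 CPM and 0.50 ± 0.69 CPM (SD, n = 4, exact permutation p = 0.657), and no difference was detected. The counting interval of the ratio, 0.29 to 3.32, leaves ratios within that range open.

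Myd88, the adaptor shared by most Toll-like receptors and the interleukin 1 receptors, lies at chr9:119335934-119341411 on the minus strand. It had 19, 23, 22 and 32 reads in CTR and 19, 20, 22 and 29 reads in CAC, which came to 6.84, 6.13, 9.13 and 7.06 CPM in CTR and 10.3, 10.6, 6.45 and 10.1 CPM in CAC. CAC 1, 2 and 4 were above all CTR libraries, whereas CAC 3 was below all of them but CTR 2. The means were 7.29 ± 1.29 CPM and 9.37 ± 1.96 CPM (SD, n = 4), and the log2 fold change of 0.35 (SE 0.24, 95% interval -0.16 to 0.85) had an adjusted p of 0.587 by edgeR. The annotated gene overlaps Slc22a14 on the same strand and Acaa1a on the opposite strand, and the strand setting of the counting is not given in the sources used here, so reads could not be assigned to Myd88 alone.

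Rela encodes p65, the subunit of NF-κB that activates transcription, and lies at chr19:5637483-5648130 on the plus strand. Its level was 31.7, 39.9, 39.4 and 35.7 CPM in CTR 1 to 4 and 45.9, 46.8, 29.0 and 41.5 CPM in CAC 1 to 4. As for Myd88, CAC 1, 2 and 4 were above every CTR library, and CAC 3 was the lowest of all 8. The means of 36.7 ± 3.84 CPM and 40.8 ± 8.20 CPM (SD, n = 4) differed by a log2 fold change of 0.13 (SE 0.15, 95% interval -0.18 to 0.44) with an adjusted p of 0.770 by edgeR. With 1 library left out, the log2 fold change of Rela ranged from 0.06 without CAC 2 to 0.28 without CAC 3, and was 0.07 without either CTR 1 or CAC 1. That of Myd88 ranged from 0.27 without CTR 2 to 0.52 without CAC 3. Neither gene was called in any of these fits.

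Nfkb1 encodes p105, the precursor of the DNA-binding subunit p50, and lies at chr3:135584655-135691547 on the minus strand. It had 10, 14, 13 and 16 reads in CTR and 3, 11, 16 and 17 reads in CAC. These came to 3.60, 3.73, 5.39 and 3.53 CPM in CTR and 1.62, 5.85, 4.69 and 5.93 CPM in CAC. CAC 1, with 3 reads, was the lowest library, CAC 2 and CAC 4 were the highest, and the groups overlapped. The means were 4.06 ± 0.89 CPM and 4.52 ± 2.01 CPM (SD, n = 4), and the log2 fold change was 0.23 (SE 0.34, 95% interval -0.47 to 0.93) with an adjusted p of 0.841 by edgeR. The value rested on single libraries, at 0.07 without CAC 4 and 0.45 without CAC 1, and limma-trend gave 0.03. Gm43430, a model that awaits experimental support, overlaps Nfkb1 on the same strand.

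**Figure D2:**
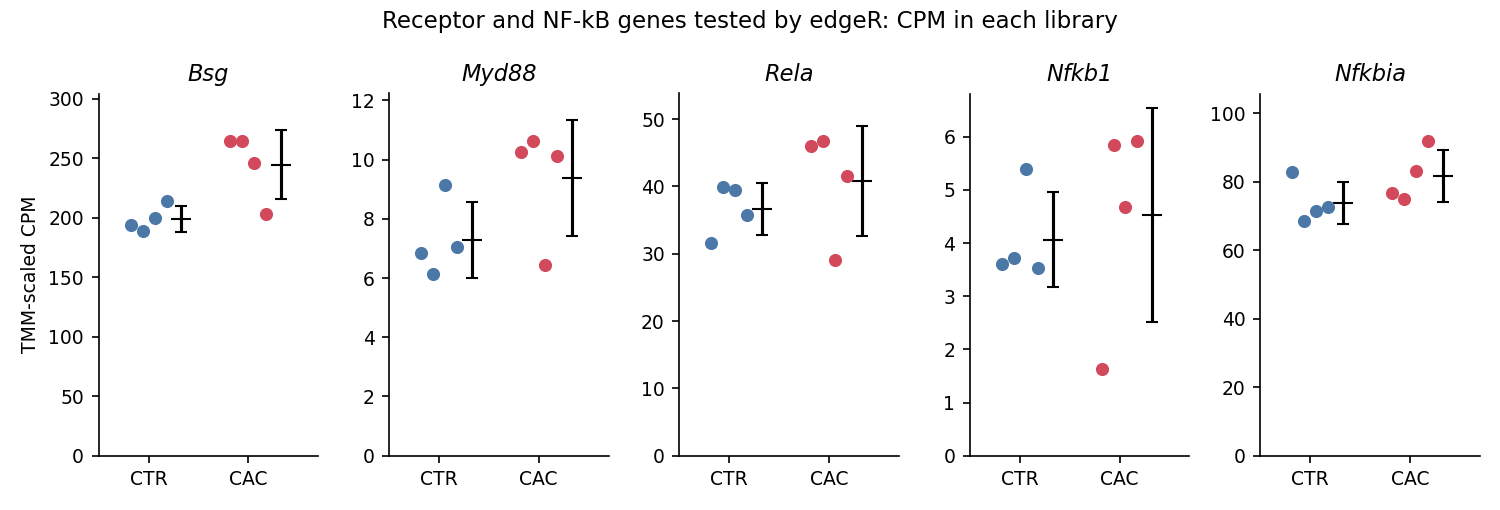
TMM-scaled CPM of the 5 genes that passed the low-count filter in CTR (blue) and CAC (red). Each axis starts at 0 and has its own scale, points are libraries in the order of their replicate numbers, and black bars are the mean and SD (n = 4). In each of the 5 genes the groups overlap, through CAC 4 for Bsg and through CAC 3 for Myd88 and Rela.

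Nfkbia encodes IκBα, which holds NF-κB in the cytoplasm and is itself induced by NF-κB, so that its mRNA is a common readout of the pathway. It lies at chr12:55489410-55492647 on the minus strand. Its level was 82.8, 68.7, 71.4 and 72.8 CPM in CTR 1 to 4 and 76.8, 75.0, 83.2 and 92.0 CPM in CAC 1 to 4, from at least 141 reads in each library. CAC 3 and CAC 4 were the highest of the 8, and CTR 1 lay above CAC 1 and CAC 2. The means were 73.9 ± 6.14 CPM and 81.7 ± 7.72 CPM (SD, n = 4), with a log2 fold change of 0.15 (SE 0.11, 95% interval -0.08 to 0.39) and an adjusted p of 0.618 by edgeR. The groups of all 5 tested genes overlapped, where 7.04% of all genes tested had groups that did not overlap in either direction.

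Tnfaip3 encodes A20, an enzyme that edits ubiquitin chains and ends NF-κB signalling, and is another feedback target of NF-κB. It lies at chr10:19000910-19015657 on the minus strand and had 0 reads in all 8 libraries, with the same upper limits as Tlr2. Of the 2 feedback inhibitors among the 10 genes, only Nfkbia could therefore be compared.

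RefSeq promoter windows each reached from 250 bases before an annotated RefSeq start to 50 after it. They were used for 5 of the 10 genes, Tlr2, Myd88, Rela, Nfkbia and Tnfaip3, in 6 windows. No window of the other genes was used, so the counts of matches below describe these 5 genes and not all 10. For Nfkbia the RefSeq start is the start of the GENCODE gene given above. The other windows are set on a start inside that gene, by 159 bases for Tlr2, 58 for Rela, 1393 for Myd88, and 247 and 3694 for the 2 windows of Tnfaip3. They were searched on both strands for the κB form, GGG then any 5 bases then CC, and for a stricter form, GGG then any 2 bases, TT, any base and CC, whose matches are all matches of the first. The strict form was chosen with the sequences in view. The looser form was in 5 of the 6 windows and in 50.8% of the 32851 promoters of this length. The strict form was in a window of 3 of the 5 genes and in 4.79% of all promoters. These strict shares are not to be compared, since the form was chosen from these sequences and the background counts single promoters, not genes. The windows of these 3 genes are shown because Nfkbia and Tnfaip3 are feedback targets of NF-κB, and 2 of the 3, Tlr2 and Tnfaip3, had 0 reads. Sequences are from RefSeq, GRCm38.p6, 5′ to 3′ on the strand of the gene (minus for all 3), with the strict match in capitals. The positions are chr3:83841559-83841858 for Tlr2, chr12:55492598-55492897 for Nfkbia and chr10:19015361-19015660 for Tnfaip3.
Tlr2: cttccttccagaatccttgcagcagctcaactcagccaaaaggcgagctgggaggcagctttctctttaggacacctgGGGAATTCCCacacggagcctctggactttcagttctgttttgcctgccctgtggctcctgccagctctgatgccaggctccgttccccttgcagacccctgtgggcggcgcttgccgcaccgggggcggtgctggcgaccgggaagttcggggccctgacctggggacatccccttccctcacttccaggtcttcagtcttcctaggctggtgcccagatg
Nfkbia: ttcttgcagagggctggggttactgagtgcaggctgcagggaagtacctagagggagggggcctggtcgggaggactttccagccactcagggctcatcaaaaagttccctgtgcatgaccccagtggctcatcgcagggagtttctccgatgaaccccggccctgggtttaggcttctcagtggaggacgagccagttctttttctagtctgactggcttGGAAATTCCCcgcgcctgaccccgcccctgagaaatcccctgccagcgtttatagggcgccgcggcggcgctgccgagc
Tnfaip3: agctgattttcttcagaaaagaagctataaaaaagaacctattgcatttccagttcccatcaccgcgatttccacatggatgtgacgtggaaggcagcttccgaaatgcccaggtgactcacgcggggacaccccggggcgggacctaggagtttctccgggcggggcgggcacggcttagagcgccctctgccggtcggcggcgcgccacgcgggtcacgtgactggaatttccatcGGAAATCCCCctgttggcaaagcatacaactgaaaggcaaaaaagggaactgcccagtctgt

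Counted from the RefSeq start as 0, the match GGGAATTCCC in Tlr2 spans -172 to -163, which is -13 to -4 from the GENCODE start, and reads the same on both strands. GGAAATTCCC in Nfkbia spans -29 to -20 from both starts. GGAAATCCCC in Tnfaip3 spans -12 to -3 from the RefSeq start and lies within the GENCODE gene, at 235 to 244. The matches in Nfkbia and Tnfaip3 are on the opposite strand. The windows of Myd88 and Rela and the other window of Tnfaip3, chr10:19011914-19012213, held no strict match. A match describes the letters of a window and is no evidence of binding. Of the 3 genes with a match, only Nfkbia was measured above 0 reads.

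The rest of the pathway was described by 81 other genes in 9 lists, of which 45 were tested. Of these, 3 were called higher in CAC and 0 lower, against 0.932% of all genes tested, and 27 of the 45 log2 fold changes were positive, with a median of 0.07. The 3 were S100a8, S100a9 and Slc16a3. The ligands and a partner of basigin were thus called, and no receptor, adaptor, kinase, NF-κB subunit or target gene was. All 3 called genes were low in CTR and passed the low-count filter through their CAC libraries. The filter thus had a part in the direction of these calls. With no filter the same 3 were called, and so was Lcn2. S100a8 was at 3.57 ± 0.84 CPM in CTR against 175 ± 85.7 CPM in CAC (SD, n = 4) and had a log2 fold change of 5.57 (SE 0.48) and an adjusted p of 0.00515 by edgeR. S100a9 was at 1.60 ± 0.79 CPM against 73.5 ± 28.1 CPM, with a log2 fold change of 5.45 (SE 0.39) and an adjusted p of 0.000182. The third ligand on the list, Hmgb1, was not called. The log2 fold changes of the 5 tested receptor and NF-κB genes lay between 0.13 and 0.35. Those of Tlr4, Cd14 and Ly96, from the fit with no filter, were 1.11, 1.05 and -0.11, and none of them was called.

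Slc16a3 encodes MCT4, a lactate exporter of glycolytic cells that needs basigin to reach the membrane. It was at 2.88, 2.13, 1.24 and 0.66 CPM in CTR 1 to 4 and at 4.32, 7.44, 4.69 and 6.27 CPM in CAC 1 to 4. All CAC libraries were above all CTR libraries, and the means were 1.73 ± 0.98 and 5.68 ± 1.45 CPM (SD, n = 4). It rose by a log2 fold change of 1.74 (SE 0.40), with an adjusted p of 0.0343 by edgeR. Its CTR libraries were all low, and its CAC libraries alone took it past the low-count filter. With no filter the log2 fold change was 1.72, with an adjusted p of 0.00345 by edgeR. The call was lost in limma-trend (adjusted p = 0.0575) and when any library other than CTR 1 or CAC 1 was left out (adjusted p from 0.0615 to 0.113 by edgeR), with the direction kept. The other 4 basigin partners, among them the transporters Slc16a1 and Slc16a7 and the ligand Ppia, which encodes cyclophilin A, were not called. The median log2 fold change of the list was -0.26. Slc16a7 (log2 fold change -0.76, unadjusted p = 0.0156 and adjusted p = 0.253 by edgeR) had all CAC libraries below all CTR libraries. It was low in CAC and passed the low-count filter through its CTR libraries. Over all genes tested, 7.04% had groups that did not overlap in either direction, as Slc16a3 and Slc16a7 did. Slc16a1 (-0.33, unadjusted p = 0.0405, adjusted p = 0.356) and Ppia (-0.26, unadjusted p = 0.0340, adjusted p = 0.332) also had negative log2 fold changes by edgeR. That of Ppib was positive (0.14, unadjusted p = 0.434 by edgeR). Over all genes tested, 12.9% had an unadjusted p below 0.05.

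**Figure D3:**
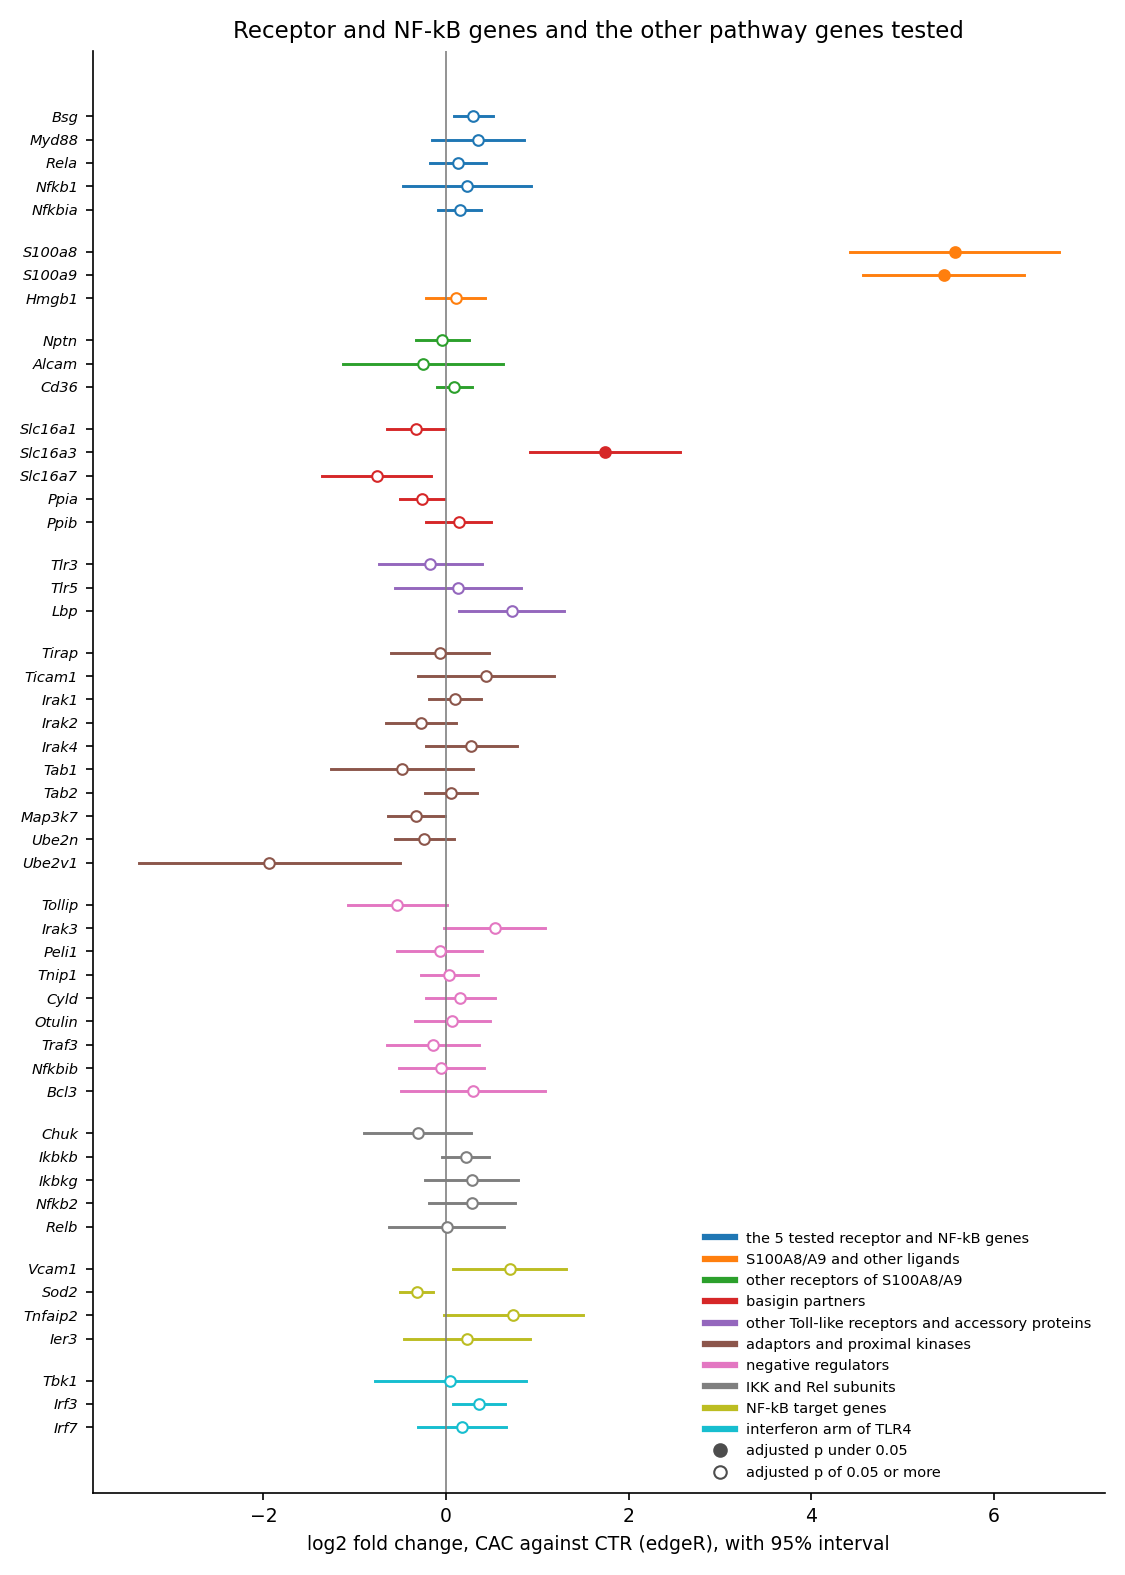
Log2 fold change of CAC against CTR by edgeR for the 5 tested receptor and NF-κB genes and the 45 other pathway genes tested, grouped by list, with 95% intervals. Filled points have an adjusted p below 0.05. S100a8 and S100a9 stand at 5.57 and 5.45 and Slc16a3 at 1.74, and all other points are open, with those of the 5 tested genes between 0.13 and 0.35.

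Of 6 other receptors of S100A8 and S100A9, 3 were tested and 0 called, with a median log2 fold change of -0.04. Cd36, a fatty acid transporter and scavenger receptor, had the smallest p of them, with 307 ± 22.9 CPM for CTR, 326 ± 12.1 CPM for CAC (SD, n = 4) and an adjusted p of 0.745 by edgeR. Ager, which encodes RAGE, had 1, 0, 0 and 7 reads in CTR and 7, 1, 1 and 4 in CAC (n = 4, exact permutation p = 0.257). Of 11 other Toll-like receptors and accessory proteins, 3 were tested and 0 called, and Lbp, the lipopolysaccharide-binding protein that hands ligand to CD14, had the smallest p. Its groups did not overlap, at 3.58 ± 0.61 and 6.06 ± 0.51 CPM (SD, n = 4), and its log2 fold change of 0.72 (SE 0.28) had an adjusted p of 0.258 by edgeR. Over all genes tested, 7.04% had groups that did not overlap. Lbp was low in CTR, and its CAC libraries were enough to take it past the low-count filter. Tlr7, a receptor of single-stranded RNA, had 2, 3, 4 and 4 reads in CTR and 1, 0, 2 and 2 in CAC, with CAC below CTR in CPM (n = 4, exact permutation p = 0.0286). Among the genes left out by the filter with 10 or more reads, 1.77% had this order of the groups, and with no filter the adjusted p of Tlr7 by edgeR was 0.699. The difference of -0.56 CPM shrank to -0.41 CPM without CAC 2 (exact permutation p = 0.114) and to -0.34 CPM without CTR 3.

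Of 13 adaptors and proximal kinases, 10 were tested and 0 called, with a median log2 fold change of -0.15. Ube2v1, a partner of the enzyme that builds ubiquitin chains on TRAF6, had the smallest p, with CTR at 50.0 ± 35.2 CPM and CAC at 13.5 ± 1.04 CPM (SD, n = 4). Its log2 fold change of -1.93 (SE 0.59) had an adjusted p of 0.254 by edgeR, and of 0.0412 by DESeq2. Its counts held fractions of reads in all 8 libraries and it overlaps Gm20431 on the same strand, so its value is uncertain. Of 13 negative regulators, 9 were tested and 0 called, and Tollip, which binds IRAK1, had the smallest p, at a log2 fold change of -0.53 (SE 0.26) and an adjusted p of 0.393.

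Of 7 IKK and Rel genes, 5 were tested and 0 called, with a median log2 fold change of 0.21. Their summed level ranged from 70.8 to 74.6 CPM in CTR and from 80.3 to 84.7 CPM in CAC, so the sums did not overlap. How often lists of this kind separate was not measured. Ikbkb, which encodes the kinase IKKβ, had the smallest p, at 37.5 ± 2.19 and 43.8 ± 4.35 CPM (SD, n = 4) and an adjusted p of 0.492 by edgeR. It overlaps the antisense gene Gm15346. Of 5 genes of the interferon arm of TLR4, 3 were tested and 0 called. Irf3, the transcription factor of this arm, was at 36.6 ± 6.61 and 46.9 ± 4.76 CPM (SD, n = 4), with an adjusted p of 0.260 by edgeR, and overlaps Bcl2l12 on the opposite strand.

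The NF-κB target genes gave 0 calls among 4 tested of 18. The median log2 fold change of the 4 was 0.47, but the filter had a part in which genes entered it: Vcam1 and Tnfaip2 were low in most CTR libraries and higher in CAC, and Birc3, with a CTR mean of 2.31 ± 0.83 CPM and a CAC mean of 0.97 ± 0.36 CPM (SD, n = 4), was left out. The summed level of all 18 went the other way, from 402 to 433 CPM in CTR and from 345 to 370 CPM in CAC without overlap, and most of it came from Sod2. Sod2, the mitochondrial superoxide dismutase, had the smallest p, with all CAC libraries below all CTR libraries, at 306 ± 7.83 CPM against 381 ± 16.1 CPM (SD, n = 4). Its log2 fold change of -0.32 (SE 0.09) had an adjusted p of 0.0881 by edgeR. Its counts held fractions of reads in 7 libraries. Vcam1, an adhesion molecule for leukocytes, was at 3.13 ± 0.30 CPM in CTR and had 5.06 ± 0.71 CPM in CAC (SD, n = 4), with CAC wholly above CTR. Its log2 fold change of 0.70 (SE 0.30) had an unadjusted p of 0.0290 and an adjusted p of 0.315 by edgeR. Over all genes tested, 7.04% had groups that did not overlap, as those of Sod2 and Vcam1 did not. Tnfaip2 and Ier3 had log2 fold changes of 0.74 and 0.23, with adjusted p of 0.401 and 0.817 by edgeR. Several cytokine targets were close to or at 0 reads. Il6 and Cxcl1 had 0 reads in every library, Tnf had 1 read in CTR and 2 in CAC in all, and Nos2 had 3 and 0. By qPCR the paper reported higher Il1b, Il6, Tnf and Nos2 mRNA in cachectic BAT. The reads of Il6, Tnf and Nos2 are too few to be set against that result.

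Il1b, which encodes interleukin 1β, had 1, 3, 1 and 2 reads in CTR 1 to 4 and 3, 9, 6 and 3 in CAC 1 to 4. In CPM the CAC libraries lay above the CTR libraries, at 0.50 ± 0.20 and 2.30 ± 1.68 CPM (SD, n = 4, exact permutation p = 0.0286). Its difference between the means fell to 0.97 CPM without CAC 2. With no filter its adjusted p by edgeR was 0.167, and it overlaps the antisense gene Il1bos. Lcn2, which encodes the iron-binding protein lipocalin 2 and was named after its values were seen, had 1, 0, 0 and 0 reads in CTR and 10, 4, 13 and 5 in CAC (exact permutation p = 0.0286), with fractions of reads in 1 library. It was called by edgeR in the fit with no filter (adjusted p = 6.53e-06). Il1b and Lcn2 were the 2 genes with CAC wholly above CTR among the 21 pathway genes below the filter with 10 or more reads, and Tlr7 was the 1 gene wholly below. Over all 6167 such genes the shares were 1.95% above and 1.77% below.

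Markers of the myeloid cells that carry TLR4 and CD14 were measured in the same libraries. Of 8 macrophage markers 7 were tested and 2 called, C1qa and C1qb, which encode chains of complement C1q. Of all genes tested, 0.932% were called. C1qa rose from 42.8 ± 6.13 to 76.3 ± 8.29 CPM (SD, n = 4) with an adjusted p of 0.00103, and C1qb rose from 30.8 ± 5.59 to 61.1 ± 12.4 CPM with an adjusted p of 0.00137, both by edgeR. The summed macrophage markers ranged from 150 to 183 CPM in CTR and from 224 to 304 CPM in CAC, with no marker at 0 throughout. The 5 monocyte markers summed to 14.3 to 20.9 and 17.5 to 33.4 CPM, with 2 tested and 0 called. The 9 neutrophil markers summed to 6.84 to 9.32 and 19.2 to 40.0 CPM, with 2 tested and 1 called, Retnlg, and with Ly6g, Cxcr2 and Camp at 0 in all CTR libraries. The part of these cell types in the levels of Tlr4, Cd14 and the ligands was not tested.

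**Figure D4:**
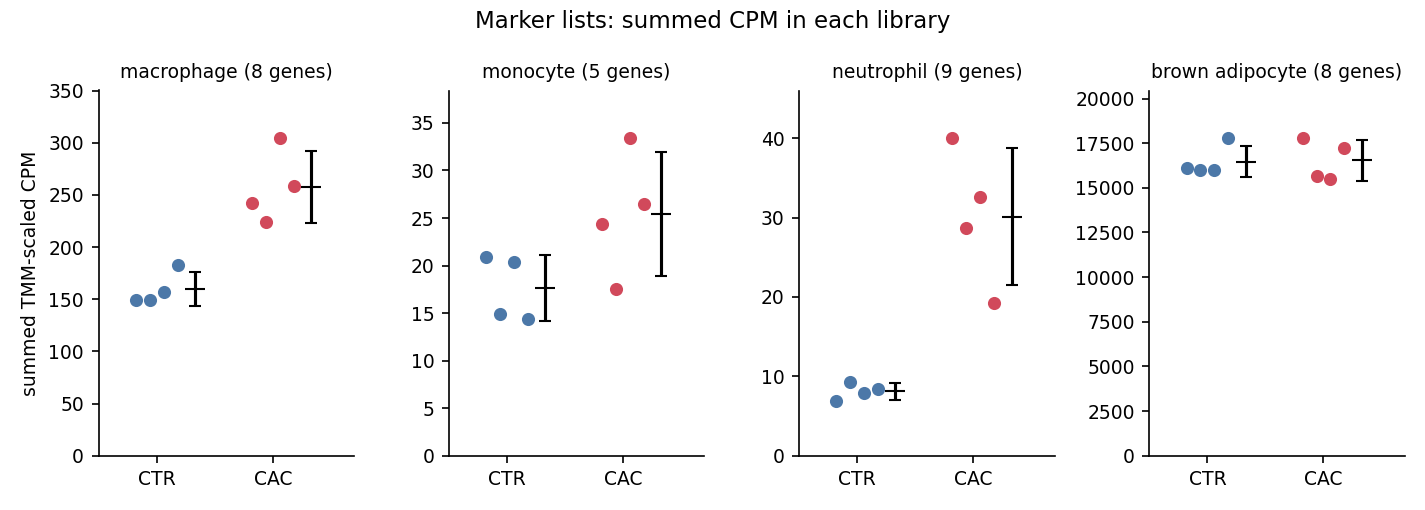
Summed TMM-scaled CPM of the macrophage, monocyte, neutrophil and brown adipocyte markers in each CTR (blue) and CAC (red) library, with the mean and SD (n = 4) in black and each axis starting at 0 on its own scale. The macrophage and neutrophil sums of the CAC libraries lie above those of CTR, at 224 to 304 against 150 to 183 CPM and 19.2 to 40.0 against 6.84 to 9.32 CPM, whereas the monocyte and brown adipocyte sums overlap.

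The other marker lists overlapped between the groups. Endothelial markers summed to 255 to 330 CPM in CTR and 208 to 295 CPM in CAC, fibroblast and progenitor markers to 247 to 271 and 212 to 332 CPM, and T and B cell markers to 2.13 to 3.24 and 1.05 to 3.24 CPM. Skeletal muscle markers summed to 616 to 1694 CPM in CTR and 1341 to 2716 CPM in CAC, and their part in the values of the 10 genes was not tested.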

How the data were processed

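RNA from BAT of 4 CTR and 4 CAC mice was sequenced in 1 library per mouse, single-end. Per the labels and methods, the authors checked reads with FastQC 0.11.9, aligned them to mm10 with HISAT2 2.2.1 and ran featureCounts so that reads with several matches were counted too. The strand setting is not given in the sources used here. The deposited table holds expected counts (reads per gene with fractions and without normalization), and a further deposited table holds a signal that the authors made by dividing counts by DESeq2 size factors. Control columns of the count table are named CTR where the labels write CTRL, and were mapped by number.

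Expected counts were rounded to whole reads and tested with edgeR 4.0.16 in R 4.3.3 (filterByExpr, TMM, robust quasi-likelihood test, no covariate, Benjamini-Hochberg adjustment over 9876 genes, threshold 0.05), after the procedure had been tested on simulated data. Genes below the filter were compared by exact two-sided permutation tests of mean CPM. Depth was 1823167 to 4827956 counts per library, and the intervals of pooled ratios and the limits from 3 counts cover counting error only, whereas those of log2 fold changes come from the edgeR fit and include the spread between mice. Groups came from the labels. Replicate numbers were not treated as pairs in the main fit. The correlations of same-numbered deviations were 0.03, -0.02, 0.03 and 0.04, and those of differently numbered libraries ranged from -0.05 to 0.04. Such values cannot show that no pairing existed. The members and lists were chosen with earlier results of these data known. The text names all 10 members, the called gene or genes and the tested gene with the smallest p of each pathway list, S100a8, S100a9 and Ager, and Il1b, Il6, Tnf and Nos2, which the study measured by qPCR. Other genes named with values were chosen after their values were seen. Alternatives were DESeq2 1.42.0, normalization by upper quartile or by library size, dropping the filter, asking at least 10 counts of every library, a replicate block, limma-trend (limma 3.58.1) on log2 of the deposited signal plus 1, decimals dropped, mitochondrial genes left out, and each library left out. Coordinates are from GENCODE M21 (GRCm38), which 91.4% of the IDs match without version. Figures were made with Python 3.11.15 and matplotlib 3.10.9.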

Additional observations from a re-analysis of the deposited data

Results flagged for a closer look

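In 61 groups of 4 libraries, 8 had 1 library far from the other 3 by Dixon's criterion. Chance gives 1 in 20, about 3 groups, but a group with reads in 1 library and 0 in the other 3 is always marked, as were the groups of Tnf and Lcn2 named here, so the count of 8 is not to be read against it. Among the receptor and NF-κB genes, Cd14 was at 1.47 CPM in CAC 3 against 2.09 to 2.16 CPM in the other CAC libraries, and Myd88 at 6.45 CPM in CAC 3 against 10.1 to 10.6 CPM. Nfkb1 was at 5.39 CPM in CTR 3 against 3.53 to 3.73 CPM in the other CTR libraries. Tnf was at 0.266 CPM in CTR 2 and at 0.586 CPM in CAC 3, and Lcn2 at 0.360 CPM in CTR 1, each against 0 in the other 3 libraries of the group. Ikbkb was at 37.3 CPM in CAC 4 against 45.7 to 46.5 CPM. The summed brown adipocyte markers were at 17783 CPM in CTR 4 against 15989 to 16128 CPM.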

How the results depend on the processing

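The receptor and NF-κB genes had 0 calls in every alternative fit run, and each of the 5 tested genes kept a positive log2 fold change in every fit that tested it, though its size moved by over 1.5 times for Rela, Nfkb1 and, without CAC 4, Nfkbia (0.15 to 0.10). Over all genes, edgeR called 92 in the fit reported, 351 with no low-count filter, 140 with the replicate block, and 42 (without CTR 1) to 135 (without CTR 3) with 1 library left out. Without CAC 3 there were 60. The block changed no call among the 10 genes or the pathway lists. DESeq2 called 110 genes. Of the pathway genes, 0 were called where at least 10 counts were asked of every library, a filter that leaves out S100a8, S100a9, Slc16a3 and Nfkb1. Ube2v1, not called in the fit reported, passed by DESeq2 and without CTR 3 (adjusted p = 0.0429 by edgeR). Of the receptor and NF-κB genes below the filter, 1 (Cd14) had CAC wholly above CTR, and 1 to 2 with a library left out, the added gene being Tlr4 without CTR 4 or CAC 4. The difference of Ly96 ranged from -0.53 to 0.11 CPM with 1 library left out and turned positive without CTR 3. The difference of the brown adipocyte marker sum was 62.9 CPM and turned to -91.2 CPM when CPM used library size only. The causes were not tested. Depth sets the limits here: 3 reads were 0.62 to 1.65 CPM, near the levels of Tlr4, Ly96 and Cd14, and mRNA levels do not report the activity of the receptors or of NF-κB.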
